A study of Mus musculus with 18 samples.

Results

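Müller glia identity and gliosis genes were examined as a module of 37 genes, of the 78239 genes in the deposited count tables. The members were written down by hand and divided by hand into 22 homeostatic and identity genes of Müller glia, 11 genes of reactive gliosis, and 4 genes for matricellular proteins and a growth factor. The question was whether homeostatic and reactive genes moved when a stabilized HIF1A was made in rods, library by library, with a photoreceptor-like cell line alongside. All 37 members passed the filter on low counts in the retina, where 18859 genes were tested, and 25 passed it in the cells, where 15962 genes were tested.

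Retinal mRNA was sequenced at 3 wpi (weeks post injection) from mice that received AAV::nsHif1a or AAV::eGFP under the retina between P29 and P32, with 5 libraries per group. The vector carried mouse HIF1A with the residues needed for its oxygen-dependent degradation and silencing exchanged (nsHIF1A, normoxia-stable), and the mOP promoter, from mouse rhodopsin, restricts it to rods, so the Müller glia themselves were not the targeted cells. Control retinas received the same injection with eGFP (enhanced green fluorescent protein). The second experiment used 661W, a mouse photoreceptor-like tumor line, at 20 h after transfection with nsHif1a or eGFP under the ubiquitous CMV promoter, with 4 libraries per group. The sample labels name the mice C57BL/6J, whereas the methods of the study name wild-type 129S6 mice. Nothing in the labels says which libraries came from separate mice or cultures, so that *p*-values measure the spread between these libraries, part of which may be technical.

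Müller glia are the radial glia of the retina. They span its whole thickness, clear glutamate and potassium, recycle retinoids for cones, pass water to the vessels, and carry transcription factors of retinal progenitors into adult life. After injury or photoreceptor loss they become reactive: intermediate filaments such as GFAP accumulate, and acute phase and matrix genes are induced downstream of cytokines of the interleukin-6 family and STAT3. Stressed photoreceptors are known to release factors, endothelin-2 among them, to which Müller glia respond.

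The libraries held 12898220 to 17809585 counts, and 3 counts in a library corresponded to 0.168 to 0.229 CPM (a gene's count relative to the library total, in CPM units scaled by TMM), a limit that covers counting error only. Counts of the *Hif1a* gene were 635.8 to 696.5 CPM with AAV::eGFP and 640.4 to 727.4 CPM with AAV::nsHif1a in the retina, so the transgene was not visible as a gain over the endogenous level there, and 149.7 to 163.6 CPM against 1220.0 to 1950.0 CPM in the cells. Libraries also differed in ways that the vector does not define. All 5 AAV::nsHif1a libraries and AAV::eGFP libraries 1 and 2 held 19492 to 28595 counts of *Xist*, the X inactivation transcript, and AAV::eGFP libraries 3, 4 and 5 held 1 to 3. The latter 3 libraries held 2701 to 3509 counts of Y-linked genes and the other 7 held 0, so by these transcripts 3 of the 5 control retinas were male and all other retinas female, and sex, which the labels do not give, differs between the groups in every retinal fold below. Gamma-crystallin genes of the lens took 1.06% to 1.82% of the counts in AAV::nsHif1a libraries 1, 3 and 4, 0.0956% to 0.13% in libraries 2 and 5, and 0.0634% to 0.28% in the controls. Library 5 of each retinal group stood apart in the reactive genes: AAV::eGFP library 5 was the highest of its group for 9 of the 11, and AAV::nsHif1a library 5 for 7 of the 11. AAV::nsHif1a library 1 was the lowest of its group for 8 of the 11.

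In the retina, *Bcl3* was the 1 member of 37 called higher with AAV::nsHif1a, at an adjusted *p*-value (Benjamini-Hochberg, over all genes tested) under 0.05 together with a log2FC (log2 fold change) over 0.5 in limma. Among all genes tested, 1.08% were called higher. No member was called lower, against 0.912% of all genes, and 10 members had an unadjusted *p* under 0.05, all of them higher, against 21.7% of all genes in either direction. Without the fold threshold, 4 members had an adjusted *p* under 0.05, against 5.79% of all genes: *Slc1a3*, *Pdpn*, *Cav1* and *Bcl3*. The groups overlapped for all 37 members, whereas they were apart for 5.94% of all genes. Over the module, 26 estimates lay above 0 and 11 at or below it, against 49.4% of all genes above 0, with a median log2FC of 0.10, where the median over all genes tested was -0.002.

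**Figure D1:**
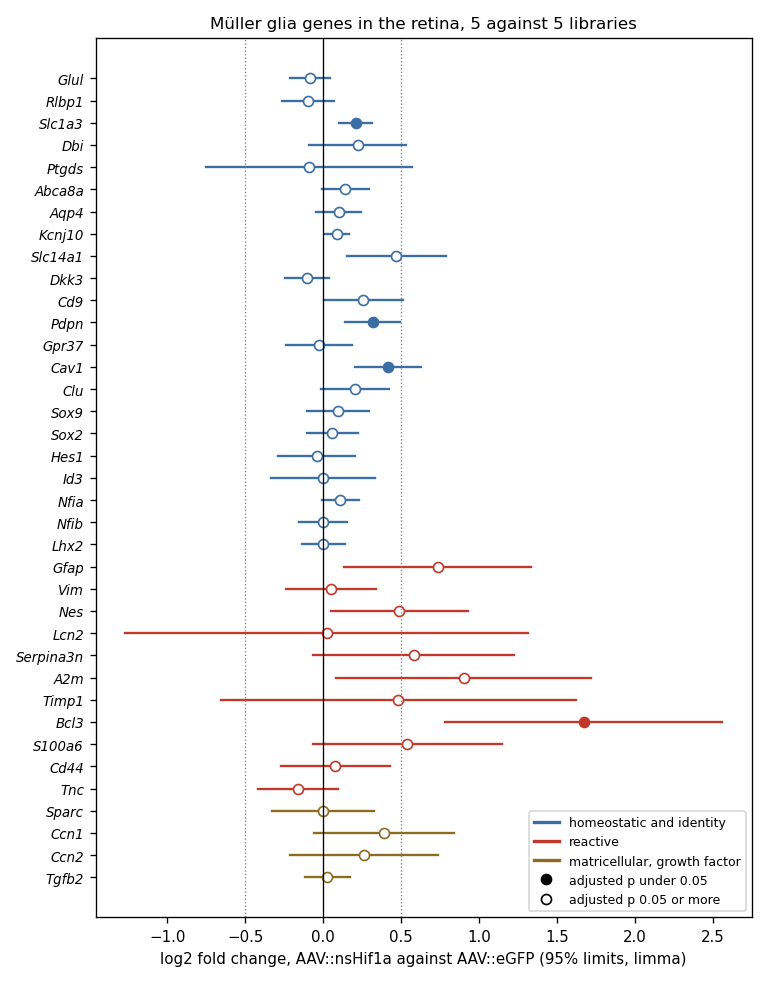
Log2 fold change of each of the 37 genes in the retina (x axis, AAV::nsHif1a against AAV::eGFP, 5 libraries each) with 95% limits from limma, 1 gene per row, colored by group; filled points have an adjusted p under 0.05 and dotted lines mark the fold threshold of 0.5. *Bcl3* (1.67) is the filled point beyond the threshold, *Slc1a3*, *Pdpn* and *Cav1* are filled short of it, and the limits are widest for *Lcn2* (-1.27 to 1.31).

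The 22 homeostatic genes had a median log2FC of 0.09, with 13 above 0, and none was called. The enzymes and carriers came first in level: *Glul*, glutamine synthetase, which turns glutamate into glutamine, was the most abundant member per length in control retinas at 1908 ± 23.8 TPM (SD, n = 5), a unit that corrects CPM for transcript length. Its CPM values were 2280.4, 2403, 2363, 2324 and 2267 with AAV::eGFP and 2432, 2201, 2199, 2299 and 1767 with AAV::nsHif1a. AAV::nsHif1a library 5 was the lowest of all 10, and the other libraries lay within a narrow range (log2FC -0.08, SE 0.06, adjusted *p* = 0.45). Of the 50-base words of *Glul* transcripts, 9.76% also occur in other genes, 7.75% in the pseudogene *Glns-ps1*, so that a small share of its reads may be counted elsewhere or lost.

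*Rlbp1* encodes the retinaldehyde-binding protein CRALBP of the visual cycle. It measured 412, 358, 455, 374 and 359 CPM with AAV::eGFP and 348, 338, 381, 421 and 322 CPM with AAV::nsHif1a, with full overlap (log2FC -0.10, SE 0.08, adjusted *p* = 0.49). *Slc1a3* encodes the glutamate transporter GLAST, which clears glutamate from the extracellular space. Its values were 256, 246, 236, 215 and 227 CPM with AAV::eGFP and 249.9, 275, 271, 271 and 285 CPM with AAV::nsHif1a. The 4 highest libraries were nsHif1a libraries 2 to 5, and nsHif1a library 1 lay below eGFP library 1 (log2FC 0.21, SE 0.05, adjusted *p* = 0.03), so this was a small difference with a small error. With the *Xist* class of the library as a covariate it became 0.11 (adjusted *p* = 0.29). *Dbi* (diazepam-binding inhibitor, log2FC 0.22, SE 0.14, adjusted *p* = 0.41), *Ptgds* (prostaglandin D2 synthase, log2FC -0.09, SE 0.30, adjusted *p* = 0.89) and *Abca8a* (an ATP-binding cassette transporter, log2FC 0.14, SE 0.07, adjusted *p* = 0.26) did not pass the test, and *Ptgds* spread from 134.97 to 502.9 CPM among the control libraries alone.

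Among the channels, *Kcnj10*, the potassium channel Kir4.1 of Müller endfeet, was the most even member. It measured 116 ± 2.39 (SD, n = 5) CPM with AAV::eGFP and 123 ± 4.13 (SD, n = 5) CPM with AAV::nsHif1a (log2FC 0.09, SE 0.04, adjusted *p* = 0.18). *Aqp4*, the water channel beside it, measured 198 ± 9.94 (SD, n = 5) and 212 ± 25.97 (SD, n = 5) CPM (log2FC 0.10, SE 0.07, adjusted *p* = 0.42). *Slc14a1*, a urea transporter, had the highest estimate of the homeostatic genes. Its values were 16.6, 11.9, 18.5, 14.96 and 22.97 CPM with AAV::eGFP and 18.8, 23.6, 25.6, 23.1 and 26.8 CPM with AAV::nsHif1a. Only eGFP library 5 lay above the lowest nsHif1a value (log2FC 0.47, SE 0.15, adjusted *p* = 0.085). Without eGFP library 5 *Slc14a1* was called, with a log2FC of 0.64 and an adjusted *p* of 0.024 in limma, and without both libraries numbered 5 its log2FC was 0.60 (adjusted *p* = 0.040), an alternative chosen after the data were seen.

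Of the membrane and secreted genes, *Cav1* and *Pdpn* had adjusted *p*-values under 0.05 at folds below the threshold. *Cav1* encodes caveolin-1, the coat protein of caveolae, which Müller glia and vessels share. Its values were 54.5, 62.9, 45.5, 41.4 and 42.04 CPM with AAV::eGFP and 59.7, 64.5, 63.1, 67.8 and 63.2 CPM with AAV::nsHif1a (log2FC 0.42, SE 0.10, adjusted *p* = 0.027). AAV::eGFP libraries 1 and 2, which hold *Xist*, lay in or near the range of the nsHif1a libraries, and libraries 3, 4 and 5, which do not, lay below it. Among the 7 libraries with *Xist* counts the log2FC of *Cav1* was 0.12 (adjusted *p* = 0.42 in limma), so that the *Xist* class and the vector cannot be told apart in this difference. *Pdpn* encodes podoplanin, a surface mucin. Its values were 53.4, 57.3, 58.2, 49.9 and 63.2 CPM with AAV::eGFP and 59.97, 67.6, 73.1, 73.02 and 83.8 CPM with AAV::nsHif1a. Only 1 control library, number 5, rose above the lowest nsHif1a value (log2FC 0.32, SE 0.08, adjusted *p* = 0.04), and among the libraries with *Xist* counts the log2FC was 0.35 (adjusted *p* = 0.12). When each library was left out in turn, the adjusted *p* stayed under 0.05 in 3 of 10 fits for *Slc1a3*, in 2 for *Pdpn* and in 5 for *Cav1*, with the estimates above 0 in all of them.

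The other 4 genes of this subgroup did not pass the test. *Dkk3*, a secreted protein of the Dickkopf family and the third most abundant member per length in control retinas, measured 1204 ± 85.96 (SD, n = 5) CPM with AAV::eGFP and 1108 ± 101 (SD, n = 5) CPM with AAV::nsHif1a (log2FC -0.10, SE 0.07, adjusted *p* = 0.39). *Clu*, the extracellular chaperone clusterin, measured 1002 ± 109 (SD, n = 5) and 1175 ± 204 (SD, n = 5) CPM, with its highest value, 1471 CPM, in nsHif1a library 5 (log2FC 0.20, SE 0.10, adjusted *p* = 0.27). *Cd9*, a tetraspanin, was also highest in that library, at 79.9 CPM (log2FC 0.26, SE 0.12, adjusted *p* = 0.22). *Gpr37*, a receptor for prosaposin-derived peptides, had a log2FC of -0.03 (SE 0.10). With the *Xist* class as a covariate its log2FC was -0.315 (SE 0.059, adjusted *p* = 0.017 in limma), short of the fold threshold. Among the libraries with *Xist* counts it was -0.311 (adjusted *p* = 0.059).

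The 7 transcription regulators had log2FC values from -0.04 for *Hes1*, an effector of Notch, to 0.11 for *Nfia*, and a median of 0. *Sox9* and *Sox2*, SRY-box factors that mark Müller nuclei, measured 24.8 ± 2.38 (SD, n = 5) against 26.2 ± 3.399 (SD, n = 5) CPM and 30.4 ± 3.63 (SD, n = 5) against 31.5 ± 1.26 (SD, n = 5) CPM. *Lhx2*, a LIM homeobox factor, measured 47.95 ± 3.99 (SD, n = 5) against 47.3 ± 3.16 (SD, n = 5) CPM, with a 95% interval of the log2FC from -0.14 to 0.14. *Id3*, *Nfib* and *Nfia* had adjusted *p*-values of 1, 0.99 and 0.26. With the *Xist* class as a covariate *Hes1* (log2FC -0.31) and *Id3* (-0.32) lay lower, with adjusted *p*-values of 0.14 and 0.37 in limma. A missed threshold leaves differences of the size of these intervals possible. In a whole retina, fewer cells of a type and less RNA per cell cannot be told apart. The paper reports eGFP fluorescence over only a part of the fundus, with degeneration confined to the transduced part. A change limited to that part would appear smaller in a whole retina, and its size there was not tested.

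The 11 reactive genes had a median log2FC of 0.49, with 10 above 0 and *Tnc* below, and 1 called. The median ran from 0.38 without AAV::eGFP library 1 to 0.81 without AAV::eGFP library 5 and was 0.90 among the 7 libraries with *Xist* counts, and the number above 0 fell to 7 without AAV::eGFP library 1 or AAV::nsHif1a library 2. The mean log2 CPM of the 11 genes was 3.91, 4.36, 4.36, 4.25 and 4.96 in AAV::eGFP libraries 1 to 5 and 4.22, 4.90, 4.83, 4.91 and 5.72 in AAV::nsHif1a libraries 1 to 5. The range within each group was wider than the difference between the group means of 4.37 and 4.92. eGFP library 5 lay above 4 of the 5 nsHif1a libraries, and nsHif1a library 1 lay below 4 of the 5 eGFP libraries. The same mean over the 22 homeostatic genes ran only from 6.63 to 6.77 with AAV::eGFP and from 6.68 to 6.90 with AAV::nsHif1a.

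**Figure D2:**
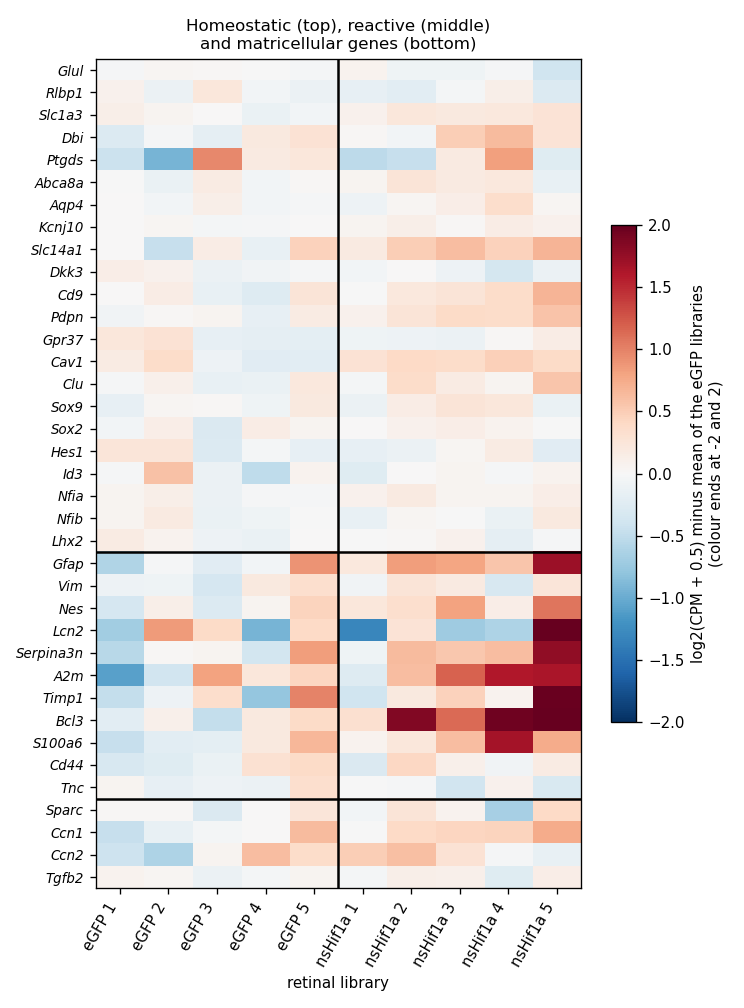
Deviation of each gene (rows) in each retinal library (columns, libraries 1 to 5 of each group) from its mean over the AAV::eGFP libraries, in log2(CPM + 0.5), red for higher and blue for lower. The homeostatic rows above the first black line are pale, with *Ptgds* the exception, and the reactive rows between the lines are darkest in AAV::nsHif1a library 5 and pale or blue in AAV::nsHif1a library 1.

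Of the intermediate filaments, *Gfap*, the classical gliosis marker, measured 26.4, 39.8, 34.6, 38.9 and 75.9 CPM with AAV::eGFP and 47.03, 72.4, 70.5, 59.8 and 134 CPM with AAV::nsHif1a. The means were 43.1 ± 19.1 (SD, n = 5) and 76.7 ± 33.5 (SD, n = 5) CPM, and eGFP library 5 lay above every nsHif1a library except number 5 (log2FC 0.73, SE 0.28, adjusted *p* = 0.14). *Gfap* thus failed the test with all libraries, and passed it without eGFP library 5 (log2FC 1.07, adjusted *p* = 0.037 in limma) and without both libraries numbered 5 (0.92, adjusted *p* = 0.018), the latter chosen after the data were seen. *Nes*, nestin, a progenitor filament, was at 5.56, 7.795, 5.86, 7.51 and 9.99 CPM with AAV::eGFP and 8.45, 9.17, 12.9, 7.95 and 15.7 CPM with AAV::nsHif1a, highest in library 5 of both groups (log2FC 0.49, SE 0.20, adjusted *p* = 0.18). *Vim*, vimentin, the constitutive filament of Müller glia, had 326 ± 59.8 (SD, n = 5) and 339 ± 55.3 (SD, n = 5) CPM, with no direction beyond its spread (log2FC 0.05, SE 0.13, adjusted *p* = 0.86).

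Among the acute phase genes, *Bcl3*, an atypical IκB protein that binds NF-κB p50 and p52 in the nucleus, was the called member. Its values were 1.83, 2.38, 1.42, 2.57 and 3.003 CPM with AAV::eGFP and 2.84, 9.17, 5.38, 9.86 and 13.2 CPM with AAV::nsHif1a, from 23 to 40 counts and from 38 to 206 counts. Of the 5 nsHif1a libraries, 4 lay above all controls, and nsHif1a library 1 fell just below eGFP library 5. The means were 2.24 ± 0.623 (SD, n = 5) and 8.08 ± 4.03 (SD, n = 5) CPM (log2FC 1.67, SE 0.41, adjusted *p* = 0.033). The estimate kept its sign and size when 1 library was left out (1.49 to 1.89), but the adjusted *p* was under 0.05 in only 5 of these 10 fits, with a range from 0.0053 to 0.080. The call was lost without AAV::eGFP library 1, 3, 4 or 5 and without AAV::nsHif1a library 2. It was 0.056 without sample quality weights, and 0.23 (log2FC 1.76) among the 7 libraries with *Xist* counts.

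*A2m*, alpha-2-macroglobulin, a protease inhibitor, measured 10.8, 17.9, 41.5, 27.7 and 31.98 CPM with AAV::eGFP and 19.7, 36.4, 53.8, 72.7 and 74.01 CPM with AAV::nsHif1a (log2FC 0.90, SE 0.38, adjusted *p* = 0.19). Its 3 highest libraries were nsHif1a libraries 3, 4 and 5, and its lowest nsHif1a value lay below 3 of the 5 controls. *Serpina3n*, a secreted serine protease inhibitor, measured 48.9, 73.8, 75.2, 55.7 and 130.03 CPM with AAV::eGFP and 67.97, 112, 105, 111 and 247 CPM with AAV::nsHif1a (log2FC 0.58, SE 0.30, adjusted *p* = 0.28). *Lcn2*, lipocalin-2, which binds bacterial siderophores, measured 12.7, 37.9, 27.3, 10.7 and 27.8 CPM with AAV::eGFP and 8.15, 25.5, 12.5, 13.4 and 166 CPM with AAV::nsHif1a. A single library decided its mean. Here nsHif1a library 5 was far above all others and the other 4 nsHif1a libraries lay within or below the range of the controls. The log2FC was 0.02 (SE 0.59, adjusted *p* = 0.99) with it and -0.49 without it, and 1.29 (adjusted *p* = 0.34 in limma) with the gamma-crystallin mean as a covariate. *Timp1*, a tissue inhibitor of metalloproteinases and the lowest member per length in control retinas, measured 0.461 to 2.78 CPM with AAV::eGFP and 0.748 to 5.95 CPM with AAV::nsHif1a, again highest in library 5 of each group (log2FC 0.48, SE 0.52, adjusted *p* = 0.64).

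**Figure D3:**
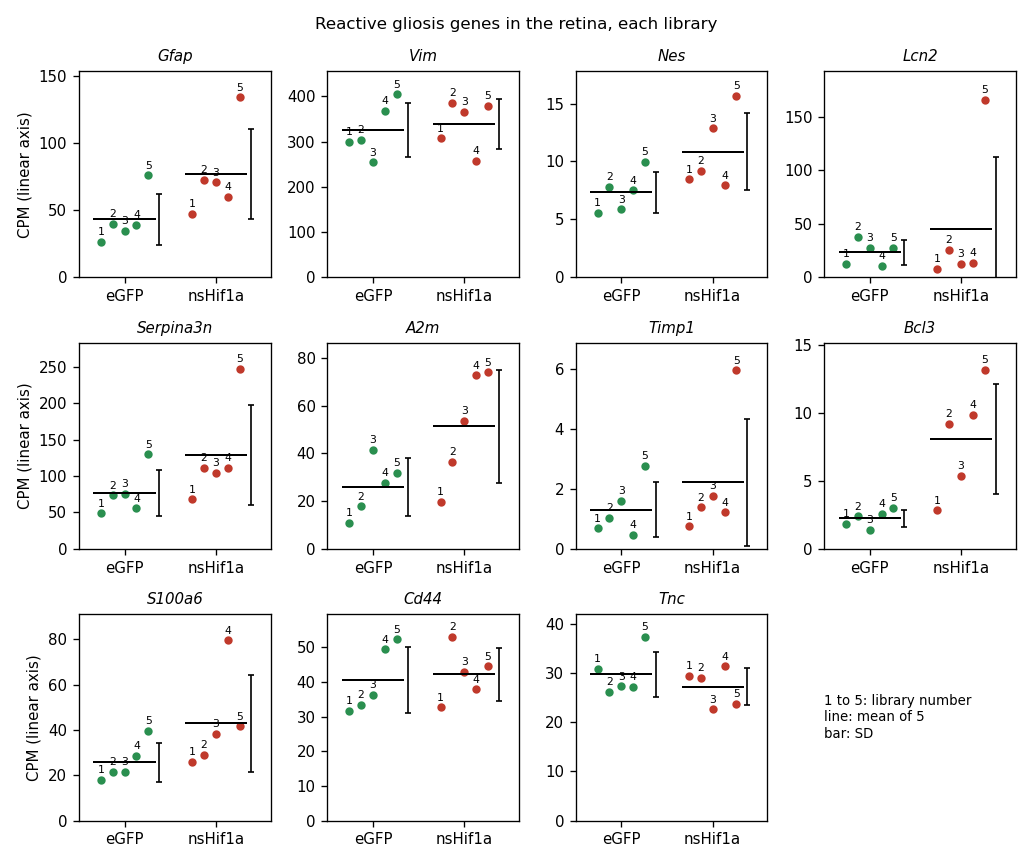
CPM of the 11 reactive genes (linear axes from 0, 1 panel per gene) in each AAV::eGFP (green) and AAV::nsHif1a (red) retinal library, numbered 1 to 5, with the group mean as a line and the SD as a bar. Number 5 sits at or near the top in both groups for *Gfap*, *Nes*, *Serpina3n* and *Timp1*, *Lcn2* is high in AAV::nsHif1a library 5 alone (166 CPM), and the *Bcl3* values of AAV::nsHif1a libraries 2 to 5 lie above every control.

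*S100a6*, a calcium-binding protein, measured 17.8, 21.5, 21.6, 28.5 and 39.6 CPM with AAV::eGFP and 26.02, 28.96, 38.4, 79.6 and 41.6 CPM with AAV::nsHif1a, where library 4 and not library 5 was the highest (log2FC 0.54, SE 0.28, adjusted *p* = 0.29). Its log2FC was 0.31 without that library, 0.81 without AAV::eGFP library 5, 0.24 with the gamma-crystallin covariate and 0.96 among the libraries with *Xist* counts. *Cd44*, the hyaluronan receptor on Müller microvilli, measured 40.6 ± 9.53 (SD, n = 5) and 42.2 ± 7.62 (SD, n = 5) CPM (log2FC 0.08, SE 0.16, adjusted *p* = 0.83). *Tnc*, the matrix glycoprotein tenascin-C, measured 29.7 ± 4.59 (SD, n = 5) and 27.2 ± 3.83 (SD, n = 5) CPM (log2FC -0.16, SE 0.12, adjusted *p* = 0.46). Neither of the last 2 differed beyond the spread between libraries.

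The matricellular genes did not pass the test. *Sparc*, a collagen-binding glycoprotein, had 469 ± 60.5 (SD, n = 5) and 479 ± 121 (SD, n = 5) CPM, with the lowest (294 CPM) and the highest (613 CPM) of its 10 values both in AAV::nsHif1a libraries (log2FC 0, SE 0.15, adjusted *p* = 1). *Ccn1* (CYR61) and *Ccn2* (CTGF), targets of YAP signaling, had log2FC values of 0.39 (SE 0.21, adjusted *p* = 0.30) and 0.26 (SE 0.22, adjusted *p* = 0.52). Among the libraries with *Xist* counts these values were 0.78 and 0.84 (adjusted *p* = 0.13 and 0.097 in limma). *Tgfb2*, the main transforming growth factor beta of the neural retina, had 93.8 ± 5.05 (SD, n = 5) and 94.97 ± 10.2 (SD, n = 5) CPM (log2FC 0.03, SE 0.07, adjusted *p* = 0.86).

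For the 4 members with an adjusted *p* under 0.05, the 250 bases before the annotated start site are shown because they let the reader see where letters of a HIF or a STAT motif lie. They come from RefSeq (build GRCm38.p6), are written 5′ to 3′ on the strand of the gene, and end at position -1. Capitals mark the HIF core, ACGTG or GCGTG, or the STAT dimer TTCNNNGAA, both searched on both strands.
Bcl3, chr7:19822756-19823005, minus strand: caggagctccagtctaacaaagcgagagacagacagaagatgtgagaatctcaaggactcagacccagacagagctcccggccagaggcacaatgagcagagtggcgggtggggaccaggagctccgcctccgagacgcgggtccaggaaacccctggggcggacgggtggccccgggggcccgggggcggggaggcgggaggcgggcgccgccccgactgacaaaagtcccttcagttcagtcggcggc
Slc1a3, chr15:8710808-8711057, minus strand: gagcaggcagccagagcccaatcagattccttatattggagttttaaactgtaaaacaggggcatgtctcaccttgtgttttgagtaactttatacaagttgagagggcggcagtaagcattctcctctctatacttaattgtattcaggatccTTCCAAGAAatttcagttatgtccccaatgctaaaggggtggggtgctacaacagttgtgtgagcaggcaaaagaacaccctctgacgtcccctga
Cav1, chr6:17306085-17306334, plus strand: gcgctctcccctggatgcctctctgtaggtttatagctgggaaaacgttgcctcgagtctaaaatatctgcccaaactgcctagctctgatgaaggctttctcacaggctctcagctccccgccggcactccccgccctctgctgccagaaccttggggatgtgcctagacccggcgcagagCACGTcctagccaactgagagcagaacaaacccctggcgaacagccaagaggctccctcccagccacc
Pdpn, chr4:143299565-143299814, minus strand: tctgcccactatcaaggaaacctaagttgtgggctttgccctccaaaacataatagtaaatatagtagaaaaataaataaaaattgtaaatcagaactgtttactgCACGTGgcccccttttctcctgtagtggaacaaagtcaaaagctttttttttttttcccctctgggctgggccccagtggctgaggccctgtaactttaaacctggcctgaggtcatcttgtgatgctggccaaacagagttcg
The *Bcl3* window holds neither motif. *Slc1a3* has a STAT dimer at -96 and, beyond the letters shown, a HIF core at position 30 after the start, *Cav1* a HIF core at -68, on the other strand, and *Pdpn* a palindrome at -144 and -143 in which the HIF core is read once on each strand, so that these are overlapping matches. *Cav1* has a second annotated start site whose window holds neither. Of the 37 members, 28 were matched in the promoter table, with 32 windows from 250 bases before to 50 after a start. A HIF core lies in 16 of these 32 windows, those of 15 genes, where 43.8% of all 32851 windows hold one. The STAT dimer was found in 2 of the 32 windows, *Slc1a3* and *Gfap* (at -2), and in 8.30% of all promoters. These matches describe letters in a window and say nothing of binding.

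Lists of related genes, written with earlier results of these data known, were read from the same fit. In it 1.08% of all genes tested were called higher and 0.912% lower. In the list of gliosis signals and receptors, 5 of 17 genes (11 tested) were called higher and none lower. These were *Lif*, the interleukin-6 family cytokine that Müller glia make after photoreceptor injury, *Stat3*, its transcription factor, *Socs3*, the feedback inhibitor of that pathway, *Edn2*, endothelin-2 from stressed photoreceptors, and *Fgf2*, a survival factor for photoreceptors. *Lif* measured 1.07, 1.61, 1.23, 0.988 and 1.58 CPM with AAV::eGFP and 1.94, 3.96, 4.46, 4.01 and 3.58 CPM with AAV::nsHif1a (log2FC 1.48, SE 0.25, adjusted *p* = 0.0058). *Stat3* measured 82.8, 110.4, 77.2, 83.02 and 100.4 CPM and 109.99, 160.4, 141, 135 and 196 CPM (log2FC 0.69, SE 0.13, adjusted *p* = 0.0081). The groups did not overlap for *Lif*, and for *Stat3* 1 nsHif1a library lay just below the highest control.

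*Socs3* measured 5.72, 9.66, 6.91, 4.22 and 9.76 CPM with AAV::eGFP and 10.5, 17.8, 13.6, 15.1 and 26.4 CPM with AAV::nsHif1a (log2FC 1.18, SE 0.26, adjusted *p* = 0.021). *Edn2* measured 9.83, 18.6, 7.097, 6.98 and 6.76 CPM and 22.4, 40.96, 27.3, 27.8 and 55.6 CPM (log2FC 1.92, SE 0.30, adjusted *p* = 0.0033). *Fgf2* measured 18.9, 20.6, 20.3, 17.7 and 21.9 CPM and 37.2, 87.3, 70.1, 63.7 and 135 CPM (log2FC 1.87, SE 0.27, adjusted *p* = 0.0022). For these 3 genes every nsHif1a library lay above every control, as for 3.25% of all genes. Here nsHif1a library 1 was the lowest of its group and library 5 the highest, the same order of extremes as in most reactive members. *Ednrb*, an endothelin receptor of Müller glia, had an adjusted *p* of 0.031 at a log2FC of 0.48, short of the threshold. The call of *Socs3* was lost without AAV::eGFP library 4 or AAV::nsHif1a library 2, and the other 4 calls held without any 1 library. Among the 7 libraries with *Xist* counts none of these 5 calls held, with log2FC values of 1.43 for *Lif*, 0.61 for *Stat3*, 1.06 for *Socs3*, 1.25 for *Edn2* and 1.88 for *Fgf2* and adjusted *p*-values from 0.070 to 0.17 in limma. With the *Xist* class as a covariate on all 10 libraries the call of *Fgf2* held (adjusted *p* = 0.022), and those of *Lif*, *Stat3*, *Socs3* and *Edn2* were lost (0.062 to 0.15). Both fits also called fewer of all genes, where the main fit called 203 higher and 172 lower of 18859. Among the libraries with *Xist* counts 64 were called higher and 76 lower of 19926, and with the covariate 104 and 117 of 18859.

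Of 24 other genes of Müller glia, 2 were called higher and none lower, against 1.08% and 0.912% of all genes, with a median log2FC of 0.08. *Dio2*, the deiodinase that activates thyroid hormone, measured 33.6, 36.01, 34.7, 54.9 and 36.6 CPM with AAV::eGFP and 146, 170.5, 163, 138 and 41.3 CPM with AAV::nsHif1a (log2FC 1.77, SE 0.32, adjusted *p* = 0.0075). Here library 5 was the exception in the other direction: it lay within the controls, while the other 4 nsHif1a libraries lay far above. With the gamma-crystallin mean as a covariate the call was lost (log2FC 1.48, adjusted *p* = 0.072 in limma). Among the libraries with *Xist* counts its adjusted *p* was 0.097. *Espn*, which encodes the actin-bundling protein espin, rose from 28.1 ± 2.52 (SD, n = 5) to 68.7 ± 17.4 (SD, n = 5) CPM without overlap (log2FC 1.26, SE 0.15, adjusted *p* = 0.00072), and kept its call among the libraries with *Xist* counts (adjusted *p* = 0.041).

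Relatives of the members were read for a shared direction. For them and for the astrocyte lists the shares of all genes are again 1.08% called higher and 0.912% lower. Of 32 relatives (25 tested), *Nfkbiz*, an atypical IκB protein like *Bcl3*, was called higher, from 13.01 ± 1.77 (SD, n = 5) to 22.2 ± 5.18 (SD, n = 5) CPM (log2FC 0.72, SE 0.15, adjusted *p* = 0.018). *Ccn4*, a relative of *Ccn1* and *Ccn2*, was called lower. *Ccn4* fell from 39.7 ± 4.596 (SD, n = 5) to 21.6 ± 2.002 (SD, n = 5) CPM (log2FC -0.89, SE 0.09, adjusted *p* = 0.00027), in all 5 nsHif1a libraries below all controls, as for 2.7% of all genes. Among the libraries with *Xist* counts the call of *Ccn4* held (adjusted *p* = 0.028) and that of *Nfkbiz* did not (0.11), nor did it without AAV::nsHif1a library 2 (0.054). Of the reactive astrocyte lists, the pan-reactive genes outside the module had 0 of 7 called (6 tested, all 6 above 0, median log2FC 0.64), the A1 genes 0 of 12 (11 tested, median 0.37), and the A2 genes 1 of 13 (11 tested, median 0.23), which was *Stat3* again.

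Levels of markers of other cells also differed between libraries, and their part in the results was not tested. The summed level of 10 microglia and macrophage markers was 59.4 to 251 CPM with AAV::eGFP and 92.1 to 265 CPM with AAV::nsHif1a, with all 10 estimates above 0, none called, and none of the markers at 0 in any library. That of 10 rod markers was 49347 to 54503 CPM against 38651 to 51431 CPM, with all 10 estimates below 0, 4 of them at an adjusted *p* under 0.05 in limma and short of the fold threshold. The 6 endothelial markers summed to 217 to 277 CPM against 259 to 327 CPM, with all 6 estimates above 0 and 1, *Kdr* (log2FC 0.26), at an adjusted *p* of 0.049. AAV::nsHif1a library 5 had the lowest rod sum of the 10 retinal libraries and the highest microglia sum, and nsHif1a library 1 the highest rod sum and the lowest microglia sum of its group. The 10 lens markers summed to 1849.8 to 6024 CPM against 1688 to 25182 CPM, with nsHif1a library 5 the lowest. The 5 astrocyte markers, *Gfap* among them, summed to 61.4 to 109 CPM against 77.5 to 172 CPM, and to 30.5 to 35 CPM against 30.5 to 39.9 CPM without *Gfap*. The 8 glial label markers, which include *Glul*, *Rlbp1*, *Slc1a3*, *Aqp4* and *Kcnj10*, summed to 4644 to 4877 CPM against 4071 to 4793 CPM and were present in every library.

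In 661W cells, homeostatic and reactive genes alike ranged from high levels to 0. Per length, *Vim* (3896 ± 20.6 TPM, SD, n = 4), *Sparc* (2097 ± 23.5), *Ccn1* (1373 ± 97.5), *S100a6* (1347 ± 20.7) and *Timp1* (575 ± 36.9) were the 5 highest members in control cells. *Timp1* was the lowest of all 37 in control retinas, at 1.99 ± 1.45 TPM (SD, n = 5). At the other end, 12 members stayed under 1 CPM in all 8 libraries, 8 homeostatic and 4 reactive. *Kcnj10* and *Sox2* had 0 counts in all 8, *Rlbp1* and *A2m* had 0 counts in the 4 control libraries, and *Aqp4*, *Abca8a*, *Gpr37* and *Slc14a1* had no more than 2 counts in any library. Of the defining markers of Müller glia, *Rlbp1*, *Aqp4*, *Kcnj10* and *Abca8a* were thus at or near 0 in these cells, whereas *Glul* stood at 87.7 to 93.1 CPM and *Sox9* at 10.9 to 12.4 CPM in the control libraries. *Gfap*, *Lcn2* and *Serpina3n* stayed under 1 CPM.

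**Figure D4:**
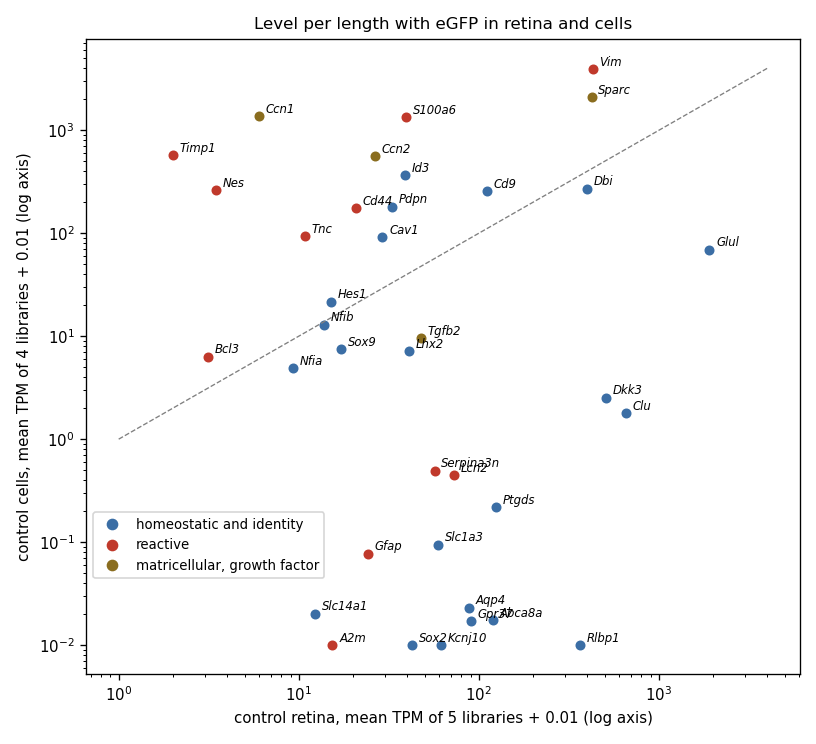
Mean level per length of each of the 37 genes in control retina (x axis, 5 libraries) against control 661W cells (y axis, 4 libraries), both as TPM + 0.01 on log axes, with equal levels on the dashed line. *Rlbp1*, *Kcnj10*, *Sox2* and *A2m* lie on the floor of the y axis, and *Vim*, *Sparc*, *Ccn1*, *S100a6* and *Timp1* lie at the top.

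No member was called in the cells, higher or lower, of 25 tested, where 1.21% of all genes were called higher and 0.0626% lower. In limma, 11 of the 25 had an unadjusted *p* under 0.05, 2 higher and 9 lower, against 20.7% of all genes in either direction, and edgeR's quasi-likelihood test and DESeq2 also called 0. *Cd9* had an adjusted *p* under 0.05 below the fold threshold: 127, 127, 125 and 117 CPM with eGFP and 97.8, 102, 108 and 109.99 CPM with nsHif1a (log2FC -0.25, SE 0.05, adjusted *p* = 0.039). Of all genes, 0.426% were lower at such an adjusted *p*. The 4 nsHif1a values of *Cd9* all lay below the 4 controls, as did those of *Id3*, *Vim* and *S100a6*. These made 4 of the 25 members, against 6.11% of all genes. *Nes* alone had all nsHif1a values above all controls, as had 1198 of the 15962 genes tested. The median log2FC was -0.03 over the 13 homeostatic genes tested and -0.17 over the 8 reactive genes tested, where that of all genes was -0.001.

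Libraries 1 and 2 differed from libraries 3 and 4 in both groups of cells. Across all genes the squared difference between 2 libraries was set against the sampling variance, with its median as a multiple of that under sampling noise alone. This ratio of squares was 1.5 to 1.62 within these pairs, 3.70 to 4.01 between them in the eGFP group and 7.69 to 9.18 in the nsHif1a group. What the pairs share is not given in the labels, and the split was chosen after the data were seen. The members were therefore read within each pair, as ratios of means with no test. Of 24 members over 1 CPM, 8 changed by more than 0.5 on the log2 scale in libraries 1 and 2 (13.3% of all genes over 1 CPM did), and none did in libraries 3 and 4 (3.51%). The signs were opposite for 10 of the 24.

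*Timp1* shows the pattern: it measured 386, 387, 424 and 436 CPM with eGFP and 165, 161, 388 and 384 CPM with nsHif1a. Libraries 1 and 2 were less than 0.5 times their controls (ratio 0.42), and libraries 3 and 4 were near theirs (0.90). *Glul* behaved alike, at 89.00, 93.1, 87.7 and 89.4 CPM and 39.9, 38.8, 91.2 and 91.8 CPM, with a ratio of 0.43 in the first pair and 1.03 in the second. *Pdpn* (0.45 and 0.83), *Id3* (0.48 and 0.91) and *S100a6* (0.60 and 0.93) were the other lower members, and *Dkk3* (2.87 and 0.88), *Tgfb2* (1.89 and 1.07) and *Bcl3* (1.62 and 0.99) the higher ones. *Bcl3* measured 5.57, 5.82, 4.17 and 3.82 CPM with eGFP and 9.38, 9.05, 3.56 and 4.38 CPM with nsHif1a (log2FC 0.37, SE 0.31, adjusted *p* = 0.54). *Slc1a3*, untested in the cells, stood at 2.41 and 1.75 CPM in nsHif1a libraries 1 and 2 and at 0.233 to 0.450 CPM in the other 6.

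**Figure D5:**
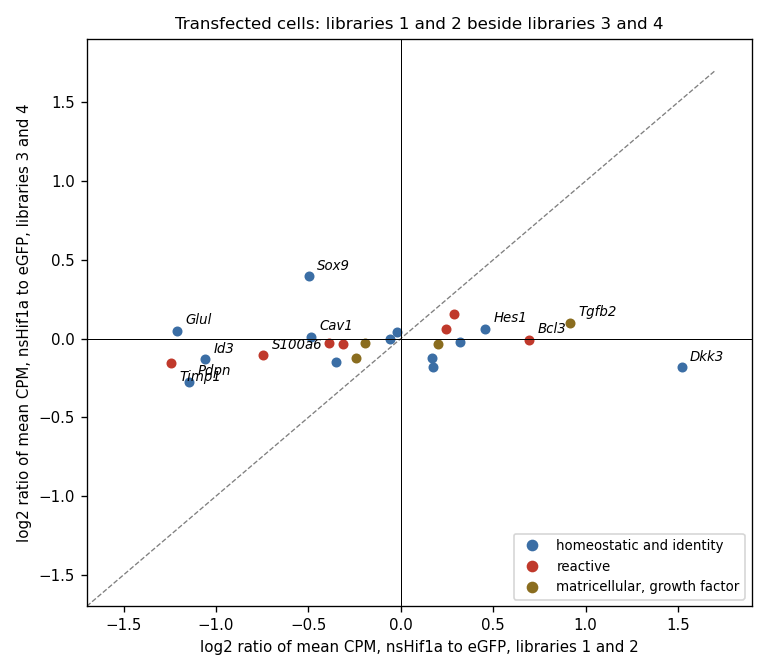
Log2 ratio of mean CPM (nsHif1a to eGFP) for the 24 members over 1 CPM in 661W cells, in libraries 1 and 2 (x axis) against libraries 3 and 4 (y axis), with equal ratios on the dashed line. The points spread from -1.24 (*Timp1*) to 1.52 (*Dkk3*) along the x axis and stay between -0.27 (*Pdpn*) and 0.40 (*Sox9*) along the y axis.

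With the pair as a covariate, *Dkk3* and *Tgfb2* were called higher and *Pdpn*, *Id3* and *Timp1* lower in limma. Of all 15962 genes tested, 519 were called higher and 73 lower in that fit, against 193 and 10 in the main fit. When nsHif1a library 3 or library 4 was left out, 8 members were called, *Dkk3*, *Bcl3* and *Tgfb2* higher and *Glul*, *Pdpn*, *Id3*, *Timp1* and *S100a6* lower. Calls rose over all genes as well, to 1201 higher and 677 lower of 16171 without library 3. Without library 4 they were 1194 and 682 of 16166. The count of 0 in the cells thus rests on how these pairs were treated.

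The difference between the retinal and the cellular effect was tested with an interaction term over all 18 libraries. It passed for *Cav1* alone of 37 members, against 2.33% of all genes: the log2FC was 0.42 in the retina and -0.24 in the cells, with a difference of 0.63 (SE 0.14, adjusted *p* = 0.027). For *Bcl3* the difference was 1.47 (SE 0.55, adjusted *p* = 0.17), so a different effect in retina and cells was not shown. With the replicate number of each experiment as a block *Bcl3* passed (1.39, adjusted *p* = 0.045) and *Cav1* did not (0.59, adjusted *p* = 0.10). The difference of *Cav1* passed in 13 of 18 fits that left out 1 library, and its retinal log2FC was 0.12 with the *Xist* class as a covariate. Members at or near 0 in the cells have no measurable effect there, and their difference carries no information.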

How the data were processed

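Stranded paired-end mRNA libraries were sequenced, 10 from mouse retina and 8 from 661W cells. The authors aligned the reads to GRCm39 with Rsubread 2.18.0 and deposited whole-number counts per gene from featureCounts (gencode M36 basic, antisense strand-specific), without normalization, as 1 table per experiment. Because the counting used strand, overlapping antisense genes were kept apart, whereas reads of near-identical genes can be lost. Here filterByExpr (edgeR 4.0.16) dropped genes of low count with its minimum of 10, TMM gave the scaling factors, and voomWithQualityWeights, lmFit and eBayes were run in limma 3.58.1 under R 4.3.3, over all genes of each experiment. *p*-values were adjusted by Benjamini-Hochberg over all genes tested, and calls needed an adjusted *p* under 0.05 and an absolute log2FC above 0.5. A prior count of 2 enters the log2 CPM means. TPM values use the union of exons in a later gencode annotation, which held 78168 of the 78239 identifiers. All 37 members are named, and genes of the other lists only where called or defining. Members and lists were written from general knowledge with earlier results of these data known. The procedure was tested on simulated counts. Groups and replicate numbers come from the sample titles. In the cells, same-numbered libraries of both groups deviated together (correlations 0.238, 0.227, 0.259 and 0.269). The numbers met the rule for pairs, that each correlation exceeds 0.1. They served as pairs only in an alternative with the replicate number as a block, and the main tests of the cells were unpaired. Libraries 1 and 2, however, matched each other's number best in both directions. DESeq2 1.42.0, edgeR's quasi-likelihood test, other scalings, filters and thresholds, covariates and the omission of each library were alternatives.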

Additional observations from a re-analysis of the deposited data

Results flagged for a closer look

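Of 124 groups of libraries examined, each being 1 gene in 1 group, 4 had a library far from the others by Dixon's criterion, and chance alone would mark about 1 in 20 groups. In the AAV::eGFP retinas, *Gfap* was 75.9 CPM in library 5 against 26.4 to 39.8 CPM in the others. In the AAV::nsHif1a retinas, library 5 was apart for *Lcn2* (166 CPM), *Serpina3n* (247 CPM) and *Timp1* (5.95 CPM).

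The effect of nsHif1a on *Cav1* differed between retina and cells by 0.63 on the log2 scale in the interaction test (SE 0.14, adjusted *p* = 0.027 in limma). All 5 AAV::nsHif1a retinas lay above the control mean of 49.3 CPM, as did AAV::eGFP libraries 1 and 2 (54.5 and 62.9 CPM), which hold *Xist*, and with the *Xist* class as a covariate the retinal log2FC of *Cav1* fell from 0.42 to 0.12.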

How the results depend on the processing

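In the retina, 1 member was called higher. Without sample quality weights, without a filter on low counts, with the *Xist* class as a covariate and among the libraries with *Xist* counts the count was 0. It was 4 without a fold threshold, 2 without both libraries numbered 5 (*Slc14a1* and *Gfap*), and 0 to 2 when 1 library was left out. No member was called lower under any alternative. The fits with the *Xist* covariate and among the libraries with *Xist* counts also called fewer of all genes higher, 104 and 64 against 203 in the main fit. In the cells the counts were 0 and 0. Without a fold threshold 1 was lower. With libraries 1 and 2 against 3 and 4 as a covariate 2 were higher and 3 lower, and leaving out 1 library gave 0 to 3 higher and 0 to 5 lower. The fits with that covariate and without nsHif1a library 3 or 4 also called more of all genes than the main fit. The difference between retina and cells was called for 1 member, for 0 in edgeR, and for 0 to 9 when 1 library was left out. The 9 were called without nsHif1a library 3 or 4 of the cells, where calls over all genes rose as well. They were 1641 higher and 1456 lower of 21454 without library 3, and 1662 and 1449 of 21452 without library 4. In the main fit 489 of 20999 were called. The cause of these changes was not tested.

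The replicate block called 4 members in the retina, *Gfap* (log2FC 0.85, adjusted *p* = 0.00074 in limma), *Serpina3n* (0.68), *A2m* (0.91) and *Bcl3* (1.83). Of all 18859 genes tested, 141 were called higher and 59 lower with the block, against 203 and 172 in the main fit. The retinal numbers do not pair the libraries, since same-numbered libraries had correlations of -0.109, 0.13, 0.138, -0.02 and -0.148 over all genes. For *Gfap*, nsHif1a libraries were 1.54 to 2.04 times the same-numbered control. These ratios rest on that matching, which sets both high libraries numbered 5 against each other. Without it the groups overlapped (adjusted *p* = 0.14 in limma). In the cells the block changed no call. In the difference between retina and cells it called *Bcl3* (1.39, adjusted *p* = 0.045) in place of *Cav1*.

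The counts limit what can be read for *Timp1* (7 to 93 counts per retinal library) and for the members near 0 in the cells. The *Xist* classes leave 2 controls beside 5 AAV::nsHif1a libraries, and estimates moved in both directions there. They fell for *Cav1* from 0.42 to 0.12, for *Slc1a3* from 0.21 to 0.11 and for *Edn2* from 1.92 to 1.25. That of *Gpr37* fell from -0.03 to -0.31. Estimates rose, among others, for *Gfap* from 0.73 to 1.11, for *A2m* from 0.90 to 1.68 and for *Serpina3n* from 0.58 to 0.90. Those of *Slc14a1* (0.47 to 0.77), *Ccn1* (0.39 to 0.78) and *Ccn2* (0.26 to 0.84) rose as well.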
